A study of Mus musculus with 15 samples.

Results

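Chromatin accessibility at 5 genes of epidermal growth factor (EGF) signalling, Btc, Adam17, Egfr, Sos1 and Spry2, was described in mouse pancreatic islets from ATAC-seq, an assay that marks open DNA by where a transposase can insert adapters. The genes were chosen by name with the changes at their peaks already known from the same tables, so the values below are a description of these genes and carry no independent support. All peaks that the authors annotated to these symbols were taken from the 4 deposited comparison tables. They came to 31 peaks among 41774, and overlapping windows of the 4 tables merged into 9 distinct regions.

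Islets came from male mice aged 3 months, 15 in all. Every mouse, controls included, carried Arid1a Fl/Fl alleles and MIP-rtTA, a transgene whose insulin promoter makes a doxycycline-dependent activator. A TRE-Cre transgene was added in the Arid1a βKO mice. It depends on the activator, so islet cells that do not use the insulin promoter should keep Arid1a. Doxycycline was given at 1 g/L in the drinking water for 2 weeks. At 1 week after doxycycline was withdrawn, part of the pancreas was cut away (partial pancreatectomy, PPx), and the islets after PPx were taken on day 6. The groups were 4 control and 3 βKO mice before PPx, and 4 control and 4 βKO mice after PPx. As far as the study is known, it asked how loss of Arid1a, a subunit of the SWI/SNF chromatin remodelling complex, acts on β cell regeneration and on EGF and neuregulin signalling.

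In EGF signalling a ligand such as betacellulin is made as a membrane-bound precursor, is cut free by a sheddase such as ADAM17, and binds EGFR or its relatives, the ERBB receptors. The bound receptor recruits adaptors and the exchange factor SOS1, which loads Ras with GTP and so starts the RAF, MEK and ERK kinase cascade. Sprouty proteins are made in response and damp the cascade, and the pathway is known for promoting growth of β cells.

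The deposited values are log2 concentrations, which are the authors' normalized mean reads per peak over the libraries of a group. Only these group values were used, without an SD, and no library could be left out. Library depth is unknown, and which mice shared a preparation was not given in the labels. A standard error (SE) was therefore derived for each change from the deposited p-value. Where p was 0.5 or more, the median SE of peaks of like concentration was used. That value rests on other peaks with a p under 0.5 and may be too small for the peak itself. Changes are given as βKO minus control or after minus before, and the threshold is the authors' false discovery rate (FDR) under 0.05. In a whole islet preparation, a different share of a cell type and a different accessibility per cell cannot be told apart.

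The comparisons differed in their general level of change, against which single genes were read. The median log2 change over all listed peaks was 0.00 between genotypes before PPx and 0.61 after PPx. From before to after PPx it was 0.16 in control islets and 0.83 in βKO islets. The share of all peaks that passed as higher was 0.0128%, 9.88%, 0% and 7.44% in these comparisons, in that order. The one peak that passed before PPx lies in exon 9 of Arid1a, the targeted gene, and read 1.21 (control) and 5.49 (βKO); after PPx it read 0.40 and 4.04, per the authors' deposited table.

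The promoter stretches of the 5 genes are shown because 4 of them lie within or almost within the peak of their gene after PPx, so they are the DNA whose accessibility was read. They come from RefSeq (GRCm38.p6, the build of the files), and each is the 120 bases directly before the start of the gene, except for Spry2. Its peak began 33 bases beyond the RefSeq window, so the outermost 120 bases of that window, the nearest to the peak, are given. Capitals mark matches to 8 short motifs searched on both strands.
Egfr, chr11:16752083-16752202, + strand: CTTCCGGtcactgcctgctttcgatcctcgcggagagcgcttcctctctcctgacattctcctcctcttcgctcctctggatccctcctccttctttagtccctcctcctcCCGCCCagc
Btc, chr5:91402995-91403114, - strand: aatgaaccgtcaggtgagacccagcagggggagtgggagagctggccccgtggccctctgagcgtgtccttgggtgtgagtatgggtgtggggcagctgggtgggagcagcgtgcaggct
Adam17, chr12:21373633-21373752, - strand: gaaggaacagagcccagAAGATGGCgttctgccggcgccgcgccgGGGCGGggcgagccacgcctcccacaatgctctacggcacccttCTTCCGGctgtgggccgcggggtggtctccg
Sos1, chr17:80480454-80480573, - strand: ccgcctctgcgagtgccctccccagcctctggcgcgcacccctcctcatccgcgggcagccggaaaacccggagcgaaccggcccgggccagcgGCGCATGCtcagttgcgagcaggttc
Spry2, chr14:105896950-105897069, - strand: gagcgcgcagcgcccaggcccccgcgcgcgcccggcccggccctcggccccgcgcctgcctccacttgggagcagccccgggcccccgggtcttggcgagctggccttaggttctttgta

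The promoter sequences differed in composition. The RefSeq windows of 300 bases, from 250 before to 50 after the start, held 30 CpG dinucleotides at Adam17, 28 at both Sos1 and Spry2, 15 at Egfr and 5 at Btc, against a median of 7 over 32851 windows. Their GC content was 70% at Adam17 and Sos1, 62.7% at Spry2, 62.3% at Egfr and 60.3% at Btc, against a median of 52.7%. All 5 windows were thus richer in GC than the median window, while Btc alone held fewer CpG than the median. The ETS motif CCGGAAG and the GC box GGGCGG each matched at Egfr and at Adam17. The ETS motif occurred in 8.86% of all windows and the GC box in 35.7%. The YY1 core AAGATGGC matched only at Adam17 (2.75% of all windows), and the NRF1 letters GCGCATGC only at Sos1 (2.71%). The CRE TGACGTCA, the AP-1 site TGANTCA, the CCAAT box CCAAT and the E-box CACGTG had no match in the 5 windows, and occurred in 1.79%, 7.81%, 37.4% and 7.15% of all windows. None of these letters overlapped another match.

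In control islets before PPx the Spry2 promoter was the most accessible of the 7 regions listed before PPx, at a log2 concentration of 4.95. Adam17 followed at 4.66, Btc at 4.48, the second Egfr intron 1 peak at 4.42 and the Sos1 upstream peak at 4.31. The promoters of Egfr (3.65) and Sos1 (3.63) were lowest and lay under 4.06, the median of all listed peaks in this group. All windows have the same width, so these levels compare equal lengths. The tables give no error for a level, so the order was not tested. The SE of the genotype changes before PPx, 0.35 to 0.47 at these regions, does not measure differences between regions within a group. Except at the Sos1 promoter, it was also taken from other peaks of like concentration.

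**Figure D1:**
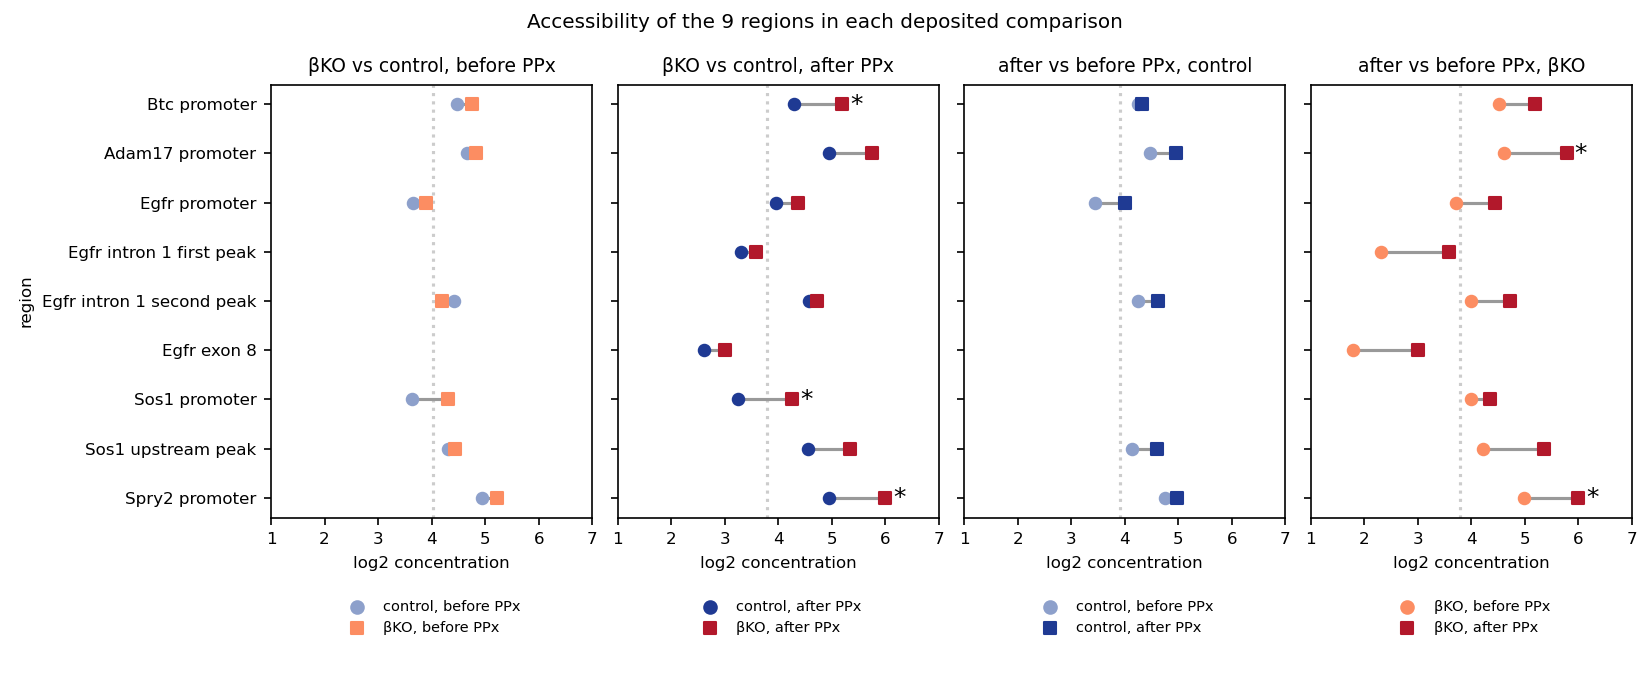
Authors' log2 concentration (x axis) of each group at the 9 regions (y axis), 1 panel per deposited comparison; circles and squares are the groups named under each panel, the dotted line is the median concentration of all listed peaks, and a star marks an authors' FDR under 0.05. No error is drawn, since the tables hold 1 value per group. After PPx the βKO value lies to the right of the control value at all 9 regions, by 0.14 to 1.06.

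Btc encodes betacellulin, a ligand of EGFR and ERBB4 that is known to be made in the pancreas. Its single peak covers the start of the gene, at chromosome 5, 91402590 to 91403190 in the comparison of genotypes after PPx. Before PPx it read 4.48 in control and 4.76 in βKO libraries (change 0.28, SE 0.38, FDR 1 in the authors' deposited table). After PPx it read 4.29 and 5.19, and the change of 0.90 (SE 0.33) passed at FDR 0.0487 per the authors' deposited table. The gap between the genotypes was thus 1.87-fold after PPx, and 0.29 above the median peak. From before to after PPx Btc changed by 0.07 (SE 0.35) in control islets and 0.68 (SE 0.44) in βKO islets, both a little under the median of their comparison. The peak was detected in 3 of 4 control libraries before PPx, in 3 of 3 of the βKO, and in all 8 libraries after it.

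Adam17 encodes the sheddase that releases several EGFR ligands from the cell surface. Its promoter peak, at chromosome 12, 21373341 to 21373941, was detected in every library of both genotypes at both times. It read 4.66 (control) and 4.83 (βKO) before PPx, and 4.94 and 5.76 after PPx, per the authors' deposited table. The difference after PPx, 0.82 (SE 0.32), had an FDR of 0.0532 and did not pass. It stood 0.21 above the median peak. In βKO islets alone, the authors' deposited table gives a rise from 4.61 before to 5.78 after PPx, which passed at an FDR of 0.0426. That change of 1.17 (SE 0.39) is 2.25-fold and stands 0.34 above the median of its comparison. In control islets the value went from 4.47 to 4.96, and this change of 0.49 (SE 0.31, FDR 0.999 in the authors' deposited table) stood 0.33 above its own median. Above the median of each comparison, the PPx change at Adam17 thus stood at nearly the same height in either genotype.

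Egfr encodes the EGF receptor and had the most peaks, a promoter peak, a pair in intron 1 and 1 in exon 8. None of the 4 passed in any comparison. The promoter peak at chromosome 11, 16752036 to 16752636, read 3.65 (control) and 3.90 (βKO) before PPx, and 3.96 and 4.37 after PPx, in the authors' deposited table. The change between genotypes was 0.25 (SE 0.47) before and 0.42 (SE 0.37) after PPx, the latter at an FDR of 0.338. This peak was detected in 1 of 4 control libraries and 2 of 3 βKO libraries before PPx, and in 2 of 4 and 4 of 4 after PPx. Of the 4 promoter peaks within 1 kb of a start that were listed for control islets, it had the largest change with PPx, from 3.44 to 4.01 (change 0.57, SE 0.43, FDR 0.999 in the authors' deposited table).

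The second intron 1 peak, centred 48.5 kb into the gene at chromosome 11, 16800435 to 16801035, was the strongest Egfr region and was detected in all 15 libraries. Here the genotypes differed little. The change was -0.22 (SE 0.40) before PPx, the only negative one among the 31 values, and 0.14 (SE 0.35) after PPx. The first intron 1 peak, 42.9 kb into the gene, and the exon 8 peak, 119.1 kb into it, were listed only in the 2 comparisons that hold the βKO libraries after PPx. They were detected in 3 of 4 and 2 of 4 of those libraries, and in 1 and 0 of the 4 control libraries after PPx. In βKO islets the first intron 1 peak went from 2.32 to 3.59 (change 1.27, SE 0.56) and the exon 8 peak from 1.79 to 3.00 (change 1.21, SE 0.73). Both are weak, and the authors' deposited table lists an FDR of 1 for them although the p-value of the intron 1 peak was 0.0238. The same held for 532 peaks of that table with a p under 0.05. Peaks listed at an FDR of 1 had a median concentration of 2.92, against 4.03 at the others.

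**Figure D2:**
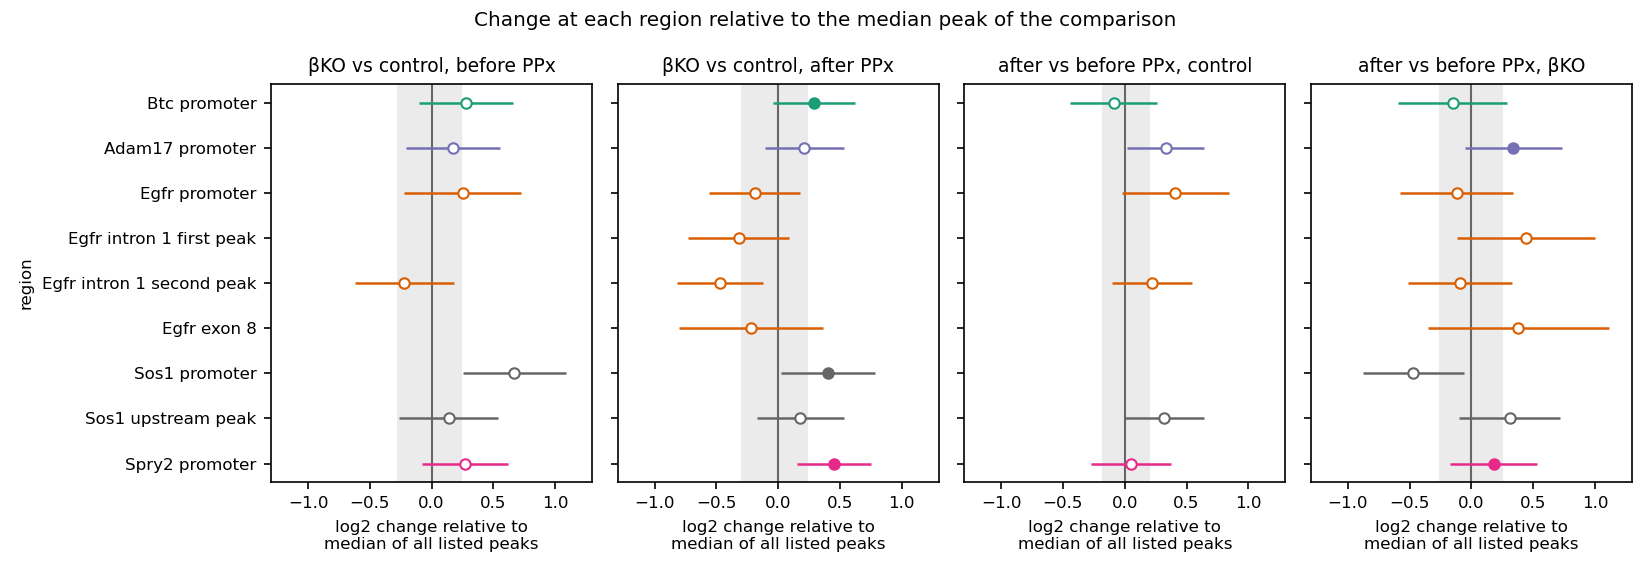
Log2 change at each region minus the median change of all listed peaks of the comparison (x axis), with the SE derived from the authors' p-value as a bar; the y axis lists the regions, filled points have an authors' FDR under 0.05, and the grey band spans the quartiles of all listed peaks. In the comparison of genotypes after PPx the 4 Egfr points lie left of 0 and the 5 others right of it; promoter and other peaks share one centre here, and against its own class the Egfr exon 8 peak lies at 0.01.

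Sos1 encodes the exchange factor that activates Ras. It had a peak at its start and another, the upstream peak, 2.6 kb before it. Before PPx the promoter read 3.63 (control) and 4.30 (βKO), a change of 0.67 (SE 0.42, p 0.114, FDR 1 in the authors' deposited table) that did not pass. This was the largest of the 7 changes before PPx and stood higher than 97.3% of promoter peaks. After PPx it read 3.25 and 4.26, a change of 1.01 (SE 0.38) that passed narrowly at FDR 0.0496, per the authors' deposited table. Within βKO islets, PPx changed this peak by 0.36 (SE 0.41), which is 0.47 under the median of that comparison. Before PPx the caller detected it in 1 of 4 control and 2 of 3 βKO libraries, later in 0 of 4 and 3 of 4. The peak was not listed in the comparison of control islets.

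The windows of the Sos1 promoter peak also differed between the tables. Their start lay between 80479972 and 80480202 on chromosome 17, so that 371 bp were shared, whereas at the other 8 regions at least 537 bp were shared. The values before and after PPx at this peak therefore do not describe the same bases throughout. The upstream peak, at chromosome 17, 80482773 to 80483373, had nearly fixed windows. It read 4.31 (control) and 4.44 (βKO) before PPx, and 4.56 and 5.35 after PPx. Its change between genotypes after PPx was 0.79 (SE 0.35, FDR 0.0772 in the authors' deposited table). In βKO islets it went from 4.22 to 5.36, a change of 1.14 (SE 0.41) that just missed the threshold (FDR 0.0507 per the authors' deposited table). In control islets it was 4.13 before and 4.61 after PPx, a change of 0.48 (SE 0.32).

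Spry2 encodes Sprouty 2, a feedback inhibitor of receptor tyrosine kinase signalling. Its peak, centred 0.6 kb before the RefSeq start at chromosome 14, 105897103 to 105897703, had the highest level of the 9 regions in each table, except that Adam17 equalled it at 4.94 in control islets after PPx. It read 4.95 and 5.22 in control and βKO libraries before PPx (change 0.27, SE 0.35, FDR 1 in the authors' deposited table). After PPx the control value was 4.94 and the βKO value 6.00. That difference of 1.06 (SE 0.30) was 2.08-fold, passed at FDR 0.0265 per the authors' deposited table and was the largest among the 9 regions. In βKO islets the peak rose from 4.99 to 6.00 (change 1.01, SE 0.35, FDR 0.0485 in the authors' deposited table). In control islets it went from 4.76 to 4.98 (change 0.21, SE 0.32). The peak was detected in 3 of 4 control libraries at either time, and in all 7 βKO libraries.

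Counted together, all 9 regions had a higher value in βKO than in control islets after PPx, as did 90.3% of all listed peaks. The Egfr exon 8 peak and the Sos1 promoter peak were detected in 0 of 4 control libraries. Their listing here rested on the βKO libraries, which favoured a higher βKO value. The promoters of Spry2, Btc and Sos1 passed, which is 3 of 9 peaks, against 9.88% of all peaks and 14.3% of promoter peaks. Since the genes were chosen with these changes known, nothing is read from that share. Their median change was 0.79, against 0.61 over all peaks. Relative to the median of all peaks, the 5 regions of Btc, Adam17, Sos1 and Spry2 stood 0.18 to 0.45 above it and the 4 regions of Egfr 0.19 to 0.47 below it. Non-promoter peaks, which 3 of the Egfr regions are, had a median change of 0.38. Against the median of their own class the Egfr values were -0.29 at the promoter, -0.09 and -0.24 at the first and second intron 1 peaks and 0.01 in exon 8, and the 5 other regions stood 0.08 to 0.35 above theirs. None of the distances from the median of all peaks exceeded 2 SE, and 3 of 9 exceeded 1 SE. These were at Spry2, the Sos1 promoter and the second Egfr intron 1 peak. Against the median of their own class, the Sos1 promoter (0.30, SE 0.38) and the second Egfr intron 1 peak (-0.24, SE 0.35) lay within 1 SE. The median distance of the 9, 0.18, was 0.08 when read against peaks of the same class (promoter or other) and 0.05 against peaks of like concentration. Among promoter peaks, whose median change was 0.71, Spry2 stood higher than 89.8%, the Sos1 promoter than 86.3%, Btc than 75.8%, Adam17 than 65.8%, the Sos1 upstream peak than 61.9% and Egfr than 19.1%. With Benjamini-Hochberg adjustment over all listed peaks in place of the authors' FDR, Spry2 passed at 0.0359, whereas Btc (0.0681) and the Sos1 promoter (0.0693) did not.

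**Figure D3:**
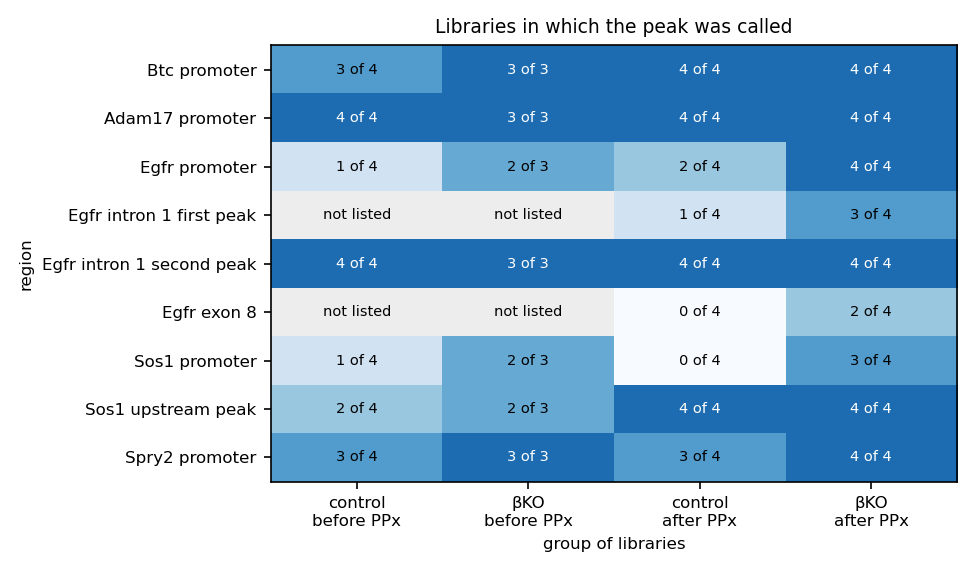
Number of libraries of each group (x axis) in which the authors' peak caller detected each of the 9 regions (y axis), from the 2 genotype comparisons; darker blue is a larger share and grey cells were not listed before PPx. After PPx the Sos1 promoter was detected in 0 of 4 control libraries and 3 of 4 of the βKO, while the Adam17 promoter and the second Egfr intron 1 peak were detected in every library.

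The number of libraries with a detected peak comes from the same libraries as the levels. Regions listed after PPx through the βKO libraries are counted too, so the counts also depend on the listing. Over the 9 regions after PPx, 22 of 36 possible detections were made in control and 32 of 36 in βKO libraries. Over all listed peaks of that table, the mean share was 40.7% in control and 71.4% in βKO libraries. Before PPx the 7 listed regions had 18 of 28 detections in control and 18 of 21 in βKO libraries, against 61.4% and 70.5% over all peaks.

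After PPx within 1 genotype, the members split in another way. In βKO islets all 9 regions had a higher value after PPx, as did 97.1% of all listed peaks, with a median change of 1.01 against 0.83 over all peaks. The first Egfr intron 1 peak and the exon 8 peak were detected in 0 of 3 libraries before PPx. They were listed through the libraries after PPx, so a rise at these regions was favoured by the listing. Adam17 and Spry2 passed, against 7.44% of all peaks and 9.72% of promoter peaks. Neither passed with Benjamini-Hochberg adjustment over all listed peaks, at 0.0508 and 0.0573. In control islets the 6 listed regions changed by 0.07 to 0.57, with a median of 0.43 against 0.16 over all peaks, and 0 passed in the authors' deposited table. The smallest unadjusted p among them was 0.11, at Adam17, so 0 were under 0.05 before adjustment.

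The signed βKO minus control change after PPx exceeded that before PPx by 0.79 (SE 0.46) at Spry2, 0.65 (SE 0.50) at Adam17, 0.65 (SE 0.53) at the Sos1 upstream peak and 0.62 (SE 0.50) at Btc. The excess was 0.34 (SE 0.57) at the Sos1 promoter and 0.17 (SE 0.60) at the Egfr promoter. At the second Egfr intron 1 peak it was 0.36 (SE 0.53), where the change went from -0.22 to 0.14. Over 7504 peaks matched between the 2 genotype comparisons, the median of this excess was 0.64. The values at Btc, Adam17 and the Sos1 upstream peak were thus close to that of the median peak, and Spry2 stood above it by less than its SE. Apart from the Sos1 promoter, the SE before PPx that enters these values was taken from peaks of like concentration. Taken instead as the PPx change of βKO islets minus that of control islets, from the same 4 groups, the values were 0.80 at Spry2, 0.68 at Adam17, 0.66 at the Sos1 upstream peak, 0.61 at Btc, 0.36 at the Egfr intron 1 peak and 0.14 at the Egfr promoter.

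The level of a group at a given peak was not the same in both of its tables. Over matched peaks, control islets before PPx read 0.18 higher when tabulated against βKO than when tabulated against control islets after PPx, and βKO islets before PPx 0.23 higher. Control islets after PPx read 0.05 lower, and βKO islets after PPx 0.00 apart. The quartiles of these steps were 0.16 to 0.19 and 0.21 to 0.24 for the groups before PPx, and at the members the steps ranged from 0.17 to 0.23 and from 0.18 to 0.31. Levels are therefore compared only within a table.

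The wider pathway was read through 75 genes of EGF, neuregulin and ERBB signalling, of which 50 had a listed peak in at least 1 table. After PPx, 6 of the 49 listed genes rose in βKO relative to control islets and 0 fell, against 13% of all listed genes with a peak that passed as higher. Besides Spry2, Btc and Sos1, these were Dusp4, Etv5 and Socs4. The promoter of Dusp4, a phosphatase that switches off MAP kinases, read 3.36 in control and 4.80 in βKO libraries (change 1.44, SE 0.35, FDR 0.0187 in the authors' deposited table). That of Socs4, a suppressor of cytokine signalling that also acts on EGFR, changed by 1.15 (SE 0.35, FDR 0.0311), and that of Etv5, an ETS factor induced by ERK signalling, by 1.00 (SE 0.30, FDR 0.0308) in the authors' deposited table. The median over the 81 peaks of the list was 0.66, and 0.64 over its 72 peaks outside the 5 genes, close to the 0.61 of all peaks. With Benjamini-Hochberg adjustment over all listed peaks, 541 of all 13111 peaks passed as higher, a count of peaks rather than genes. The share of all genes was not taken there, so the list is not set against it. On the list 6 genes also passed, namely Dusp4, Etv5, Socs4, Spry2, Spred1 and Spry1. The last pair, relatives of Spry2, had weak promoter peaks that went from 2.62 to 4.03 at Spred1 (p 0.00102) and from 2.29 to 3.87 at Spry1 (p 0.000887), and the authors' deposited table lists both at an FDR of 1. Both were detected in 0 of 4 control and 3 of 4 βKO libraries, and the Dusp4 promoter in 0 of 4 and 4 of 4. Their listing in this comparison thus rested on the group in which they were higher, and nothing further is read from them.

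By role, feedback and negative regulators had a median change of 0.83 over 23 peaks after PPx, with 3 of 16 genes higher (Dusp4, Socs4 and Spry2). Ligands had a median of 0.82 over 12 peaks, with 1 of 6 genes higher (Btc). Adaptors and Ras activators were at 0.60 with 1 of 6 higher (Sos1), ERK-responsive transcription factors at 0.61 with 1 of 10 higher (Etv5), and kinases of the cascade at 0.51 with 0 of 6 higher. The 2 listed sheddase genes, Adam17 among them, had a median of 0.41 over 2 peaks, with 0 higher. Receptors had a median of 0.34 over 6 peaks, 4 of them of Egfr and the others of Erbb3 and Erbb4, with 0 of 3 genes higher. Over all listed genes of this comparison, 13% had a peak that passed as higher. Nothing is read from the counts by role. Promoter peaks made up 33.3% of the receptor peaks and 69.6% of the feedback peaks. At promoters alone the medians were 0.58 for receptors, 0.84 for feedback genes and 0.41 for sheddases, against 0.71 over all promoter peaks and 0.38 over all other peaks. The intron 1 peak of Erbb4, a receptor for neuregulins and betacellulin, had the lowest signed change of the stronger list peaks, those of at least the median concentration, from 4.38 in control to 4.19 in βKO libraries (change -0.19, SE 0.37, FDR 0.692 in the authors' deposited table). Before PPx this Erbb4 peak read 4.30 and 3.43 (change -0.87, p 0.0506, FDR 1 in the authors' deposited table). Peaks detected in 0 of 4 control libraries after PPx are included in these medians, such as those of Cbl, Spred1, Spry1, Nrg2 and Erbb3. Their listing rested on the βKO libraries, which favoured a higher βKO value. Differences between the roles were not tested, and nothing is read from them.

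**Figure D4:**
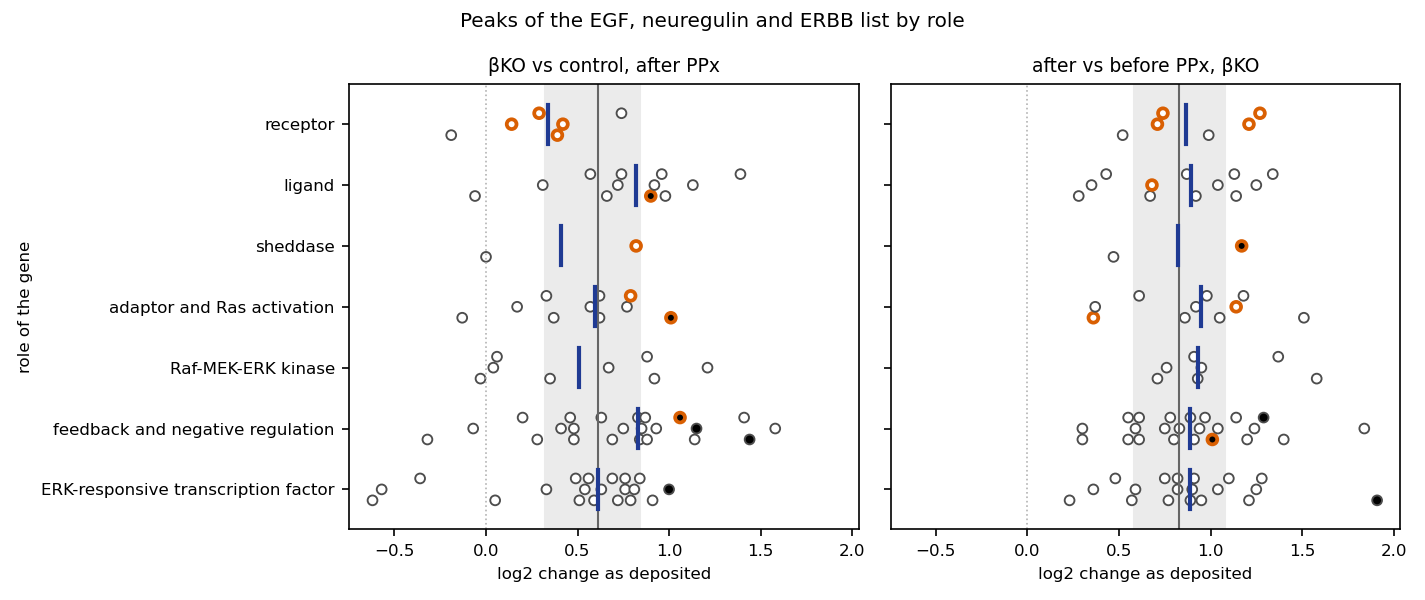
Deposited log2 change (x axis) of every listed peak of the EGF, neuregulin and ERBB genes by role (y axis), for βKO against control after PPx and for PPx in βKO islets; each point is a peak, filled where the authors' FDR is under 0.05 and ringed in orange for Btc, Adam17, Egfr, Sos1 and Spry2. Blue bars are medians of a role, and the dark line and grey band are the median and quartiles of all listed peaks. In the left panel receptors and feedback genes have medians of 0.34 and 0.83 over all their peaks. Over their promoter peaks alone these are 0.58 and 0.84, and peaks listed only through the βKO libraries are included.

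In βKO islets after against before PPx, 4 of 48 listed genes of the pathway rose and 0 fell, against 9.57% of all listed genes. These were Adam17, Spry2, Dusp4 and Elk3. A distal peak of Dusp4 went from 3.65 to 4.95 (change 1.29, SE 0.40, FDR 0.0365 in the authors' deposited table). An intron 4 peak of Elk3, an ETS factor, went from 1.97 to 3.89 (change 1.91, SE 0.64, FDR 0.0435 in the authors' deposited table). It was detected in 0 of 3 libraries before and 2 of 4 after PPx, so its listing rested on the group in which it was higher. Among the stronger list peaks, the Araf promoter, of a RAF kinase gene, had the highest change, 1.37 (SE 0.49, FDR 0.0507), and an exon 2 peak of the neuregulin gene Nrg3 the lowest, 0.35 (SE 0.43, FDR 0.459), in the authors' deposited table. With Benjamini-Hochberg adjustment over all listed peaks, 573 of all 12767 peaks passed as higher, and Dusp4 was the only list gene. The share of all genes was not taken there.

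The other 2 comparisons held no list gene past the threshold. Before PPx, 0 of 35 listed genes passed between the genotypes, against 0.0128% of all peaks, and the list's median change was 0.11. At an unadjusted p under 0.05, 1 of its 51 peaks were higher and 1 lower, against 66 and 180 of all 7826 peaks. Among the stronger peaks the highest change was at a distal peak of Etv1, another ETS factor gene, from 5.35 to 6.20 (change 0.85, SE 0.31, p 0.00675, FDR 1 in the authors' deposited table). The lowest was in intron 2 of Sos2, the paralogue of Sos1, from 4.95 to 4.22 (change -0.73, SE 0.81). In control islets 0 of 37 listed genes passed after PPx, against 0% of all peaks, with a median of 0.26. At an unadjusted p under 0.05, 3 of its 52 peaks were higher and 0 lower, against 196 and 8 of all 8070 peaks. Among the stronger list peaks there, the Spred2 promoter, of a Sprouty-related inhibitor, had the highest change, from 4.08 to 4.85 (change 0.77, SE 0.31, p 0.0133, FDR 0.999 in the authors' deposited table), and the Elk1 promoter the lowest signed change, from 4.07 to 4.05 (change -0.02, SE 0.37).

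The peaks most like those of the 5 genes were sought among 6808 peaks listed in all 4 tables, by the Euclidean distance over the 4 changes. The 4 changes share libraries, so likeness is a description only. Peaks of predicted genes were left out, so the nearest peaks given here are the nearest among the others. Adam17 and the Sos1 upstream peak were each other's nearest peak, at a distance of 0.053. Their 4 changes were 0.17 and 0.14 between genotypes before PPx, 0.82 and 0.79 after PPx, 0.49 and 0.48 for PPx in control islets, and 1.17 and 1.14 for PPx in βKO islets. The next nearest were the promoters of Robo1 to Adam17 (0.085) and of Rraga to the Sos1 peak (0.069). The Spry2 promoter was nearest to the promoters of Dnajc1 (0.041) and Ndufaf7 (0.047), Btc to those of Nup54 (0.037) and Efna5 (0.051), and Egfr to those of Diaph1 (0.052) and Ppp1r3e (0.055).

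The tissue label was checked against marker genes. In the table of genotypes after PPx, 6 of 10 β cell markers had a listed peak, Ins1, Mafa and Nkx6-1 among them, whereas Ins2, Iapp, Pdx1 and Slc2a2 had none. Gcg and Sst, the hormone genes of α and δ cells, were listed too. The Ins1 promoter, of an insulin gene, read 4.13 in control and 5.62 in βKO libraries after PPx (change 1.49, FDR 0.0154 per the authors' deposited table). Before PPx it already read 4.12 and 5.08, a change of 0.95 that did not pass. Of the other pancreatic cell types, 1 of 10 acinar, 1 of 6 duct, 3 of 5 endothelial, 2 of 5 stromal and 2 of 5 leukocyte markers had a listed peak. Summed over a list, the log2 concentration of β cell markers read 7.11 (control) and 7.83 (βKO), with values of 5.54 and 5.87 for α cell, 4.20 and 5.32 for δ cell, 5.88 and 5.93 for endothelial, 5.09 and 5.53 for stromal, 4.16 and 4.77 for leukocyte, 3.98 and 4.25 for duct and 3.06 and 3.15 for acinar markers. These sums grow with the number of listed peaks, which was 12, 4, 1, 6, 3, 2, 2 and 1 in the same order. The lists are therefore not ranked by them. The median change was 0.61 over β cell marker peaks, as over all listed peaks, and ranged from 0.08 (acinar) to 1.12 (δ cell) over the other lists. The part of cell composition in the changes at the 5 genes was not tested.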

How the data were processed

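ATAC-seq libraries of 40000 islet cells were read as single ends of 75 bp, per the labels' protocols. Per the submitters' processing notes, the tools were MACS, BWA, cutadapt, ChIPseeker and DiffBind on mm10 (GRCm38). Versions, settings, the test behind the p-value and any shift for Tn5 were not given in the sources used here. The deposited tables hold log2 concentrations per group, a log2 fold, a p-value, an FDR and the number of libraries with the peak, per the file headers. Per-library values were not used, which leaves depth unknown.

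Python 3.11.15 with pandas, numpy and scipy was used. Repeated rows were counted once and 1 empty row was dropped. The sign of the fold was turned, and windows of different tables were matched by at least 1 bp. An SE was the change divided by the normal quantile of the two-sided p-value, or, at p of 0.5 or more, the median SE of the same 10th of concentration. Whether an SE taken from peaks of like concentration holds for the single peak was not tested. No test of the 5 genes was made, since members and lists were chosen with earlier results of these data known. Genes named from the wider list are those past an FDR of 0.05 and, per comparison, the highest and lowest signed change among peaks of at least the median concentration. Motifs were searched in RefSeq promoter windows, all 5 of which matched by symbol. Alternatives were other centrings, FDR limits of 0.1 and 0.01, Benjamini-Hochberg adjustment over all peaks, promoter peaks only and counting every row.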

Additional observations from a re-analysis of the deposited data

How the results depend on the processing

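The median change of the 5 genes' peaks relative to all peaks was 0.25, 0.18, 0.27 and 0.18 for genotype before PPx, genotype after PPx, PPx in control and PPx in βKO islets. Centred on peaks of the same class or the same 10th of concentration it stayed above 0. For genotype after PPx it came down to 0.08 and 0.05. These shifts were smaller than the median SE of the single peaks, which is not an SE of the median change. As deposited the median change was 0.79 for genotype after PPx and 1.01 for PPx in βKO islets. Of 31 single values, 1 changed sign with class centring (Egfr exon 8 after PPx, 0.01), 0 by concentration and 9 without centring. The pathway genes higher in βKO than control islets after PPx numbered 6 of 49 listed, 19 at an FDR under 0.1 and 0 under 0.01. For PPx in βKO islets they numbered 4 of 48 listed, 21 under 0.1, 0 under 0.01, 1 with Benjamini-Hochberg adjustment over all peaks and 2 at promoters only. Of 13111 peaks for genotype after PPx, 1296 were higher, 541 with that adjustment and 3358 under 0.1. Of 12767 peaks for PPx in βKO islets these numbers were 950, 573 and 3941. The share of all genes was not taken at the settings other than 0.05, so nothing about the list is read from its counts there. No paired analysis was possible because the tables hold group means, and leaving out single libraries was not possible for the same reason.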
